A study of Mus musculus with 6 samples.

Results

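The Siglecs are cell-surface lectins that bind sialic acid, and 8 of their genes were followed here in mouse leukemia cells given an IKK inhibitor. They are Cd22, Siglecg, Mag, Siglec1, Cd33, Siglece, Siglecf and Siglech. Each was read by 1 probe set that the platform's annotation assigns to it alone, so the family makes up 8 of the 19847 genes tested. The family was selected on the differences in intensity between inhibitor and vehicle arrays, that of Cd22 among them, which were already known, and its other genes came with it by name. The levels and differences of the 8 genes are therefore given as a description, without a test of their own. Siglec15, a further gene of the family, is given beside them.

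The cells are a mouse leukemia line that carries MLL-AF10, a fusion of the histone methyltransferase MLL to AF10. They were grown with medium conditioned by WEHI cells, which all groups shared. There were 3 samples given vehicle and 3 given an IKK inhibitor at 0.5 µM, and the total RNA of each was hybridised to its own whole-transcript array. IKK kinases release NF-kB transcription factors from their cytoplasmic inhibitors. Nothing in the sources used here names the compound or the treatment time, or says whether the line is a single clone and the samples separate cultures. The p-values thus rest on a spread between samples that may be technical only. Values are probe set intensities on a linear scale, which cannot be compared between genes because each probe set has its own brightness. Array medians lay between 112 and 124, and the number of arrays limits the precision. Of the arrays given the inhibitor, array 2 had the lowest median and array 3 the highest. On the vehicle arrays the mean intensity was 1725 for the pan-leukocyte gene Ptprc (CD45) and 1446 for the myeloid integrin gene Itgam, which describes these probe sets only.

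Most Siglecs restrain the cell that carries them. Their cytoplasmic tails hold tyrosine motifs that, once phosphorylated by Src family kinases, recruit the phosphatases SHP-1 and SHP-2 (Ptpn6 and Ptpn11). A smaller class has a short tail and a charged residue in the membrane, pairs with the adaptor DAP12 (Tyrobp) and signals through the kinase SYK. Several members are known as markers: Cd22 and Siglecg of B cells, Siglece of neutrophils and macrophages, Siglec1 of tissue macrophages, Siglecf of eosinophils and alveolar macrophages, Siglech of plasmacytoid dendritic cells, and Mag of myelin. Cd33 belongs to the myeloid members, and its human counterpart is a target of antibody therapy in acute myeloid leukemia.

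The promoters are shown first because 3 of the 4 members that differed most between the groups, Cd22, Siglece and Cd33, have an entry in the RefSeq promoter table (GRCm38.p6), and because Siglecf carries a stretch close to one in Cd33. Windows run from 250 bases before to 50 bases after an annotated start, and 7 of the 8 members have at least 1. Siglec1 has no entry. Capitals in the Siglece window mark matches to the motifs searched. The Cd22 window held no match and is all in lower case. Capitals in the Cd33 and Siglecf windows mark bases in runs of at least 9 that the other window also holds on the strand of the gene. Overlapping runs are joined, so the 20 capitals of Cd33 from -161 to -142 do not stand as a whole in Siglecf.
Cd22 (chr7:30878979-30879278, minus strand): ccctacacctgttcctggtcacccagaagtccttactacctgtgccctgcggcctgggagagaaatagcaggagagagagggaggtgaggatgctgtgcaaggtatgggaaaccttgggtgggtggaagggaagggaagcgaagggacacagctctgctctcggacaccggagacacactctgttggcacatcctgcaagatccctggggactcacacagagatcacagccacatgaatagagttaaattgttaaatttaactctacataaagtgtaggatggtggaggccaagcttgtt
Siglece (chr7:43660112-43660411, minus strand): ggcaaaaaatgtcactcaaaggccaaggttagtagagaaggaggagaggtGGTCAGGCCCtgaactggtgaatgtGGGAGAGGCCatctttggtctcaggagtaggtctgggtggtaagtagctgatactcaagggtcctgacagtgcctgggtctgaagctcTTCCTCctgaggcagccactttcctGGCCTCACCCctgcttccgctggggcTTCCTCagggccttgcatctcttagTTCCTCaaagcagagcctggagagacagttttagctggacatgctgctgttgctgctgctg
Cd33 (chr7:43533122-43533421, minus strand): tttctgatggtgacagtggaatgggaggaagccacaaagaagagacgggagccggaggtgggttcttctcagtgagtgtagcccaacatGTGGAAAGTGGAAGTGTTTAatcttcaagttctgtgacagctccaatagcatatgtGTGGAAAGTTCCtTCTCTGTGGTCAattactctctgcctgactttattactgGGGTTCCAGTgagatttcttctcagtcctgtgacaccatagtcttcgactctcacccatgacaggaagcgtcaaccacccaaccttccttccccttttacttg
Siglecf (chr7:43351091-43351390, plus strand): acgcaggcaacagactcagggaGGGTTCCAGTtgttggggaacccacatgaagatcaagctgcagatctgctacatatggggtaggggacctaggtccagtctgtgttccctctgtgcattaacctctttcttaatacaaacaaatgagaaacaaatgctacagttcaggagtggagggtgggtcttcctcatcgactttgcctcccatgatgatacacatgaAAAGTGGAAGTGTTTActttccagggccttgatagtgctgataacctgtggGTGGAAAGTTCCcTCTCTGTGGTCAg

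A run of 16 bases, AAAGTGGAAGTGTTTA, stood in both the Cd33 and the Siglecf window and in no other of the 32851 windows of the table. A further run, GTGGAAAGTTCC, was likewise held by 2 of the 32851 windows, those same members. In Cd33 the first letters of the runs lay 52 bases apart and in Siglecf 51 bases apart. The position against the annotated start differed, with the 16-base run beginning at -157 in Cd33 and at -27 in Siglecf, where the start is 0. Among the other pairs of members the longest shared run had 7 to 10 bases. The pair with this shared stretch did not have the same values on the arrays, as given below: the 3 inhibitor arrays lay above the 3 vehicle arrays for Cd33, and they overlapped for Siglecf.

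Motifs were searched by their letters on both strands. A loose NF-kB pattern, GGG and CC with any 5 bases between them, matched 3 times in Siglece and was absent from the windows of Cd22, Cd33 and Siglecf, and 50.8% of all windows hold it. The core of the myeloid factor PU.1, GAGGAA, matched 3 times in Siglece and once each in Cd33 and Siglecf, against 28.3% of all windows with a match. The RUNX core TGTGGT, held by 16.8% of windows, lay in a shared stretch of Cd33 and Siglecf. No match in Siglece, Cd33 or Siglecf overlapped another. The C/EBP pattern TTGCNNAA (10.8% of windows), an interferon response element of GAAA repeated after any 2 bases (3.44%), the AP-1 pattern TGANTCA (7.81%) and the E-box CACGTG (7.15%) matched in none of these 4 windows. Of the members whose windows are not printed, Mag held the NF-kB and PU.1 patterns in each of its 3 windows, Siglecg held PU.1 in 1 of 2, and Siglech held PU.1 once. In windows 1 and 2 of Mag these matches kept the same spacing (-217 and -234, then -158 and -175), so they may be the same sites. RUNX and C/EBP matched in 1 window of Mag and in Siglech, and the E-box in Siglech. The NF-kB pattern was thus held by Siglece and Mag, with log2 differences of 1.18 and 0.01. A match describes letters and is not evidence of a site.

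**Figure D1:**
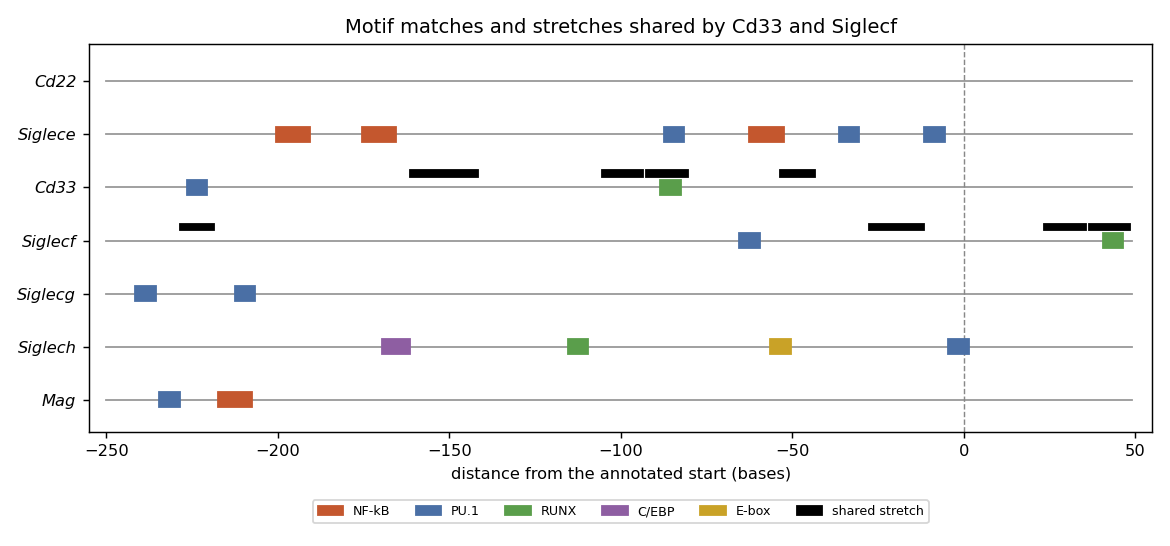
Motif matches in the first listed promoter window of 7 Siglec genes, by distance in bases from the annotated start at 0. Coloured boxes are motif matches on either strand. Black bars are bases of Cd33 and Siglecf in runs of at least 9 that the other window also holds, with overlapping runs joined. The bars lie before the start in Cd33, and in Siglecf they fall on both sides of it, while the Cd22 line carries no box.

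The log2 differences of the members were graded, from 1.18 for Siglece through 0.79 for Cd22, 0.30 for Cd33 and 0.13 for Siglech to -0.20 for Siglecg. Intensities of Siglece, Siglec1, Cd22 and Cd33 were higher on every inhibitor array than on any vehicle array, and those of Siglecg, Mag, Siglecf and Siglech overlapped between the groups. Over all genes tested, 32.9% had groups that did not overlap, and 15.7% had the inhibitor arrays all above the vehicle arrays. In the limma fit over all genes, 4 of the 8 members were called higher and 0 lower, beside 13.9% of all genes called, 7.10% higher and 6.75% lower, with an adjusted p under 0.05 as the threshold. At an unadjusted p under 0.05 the counts were also 4 and 0, beside 5394 of the 19847 genes in either direction. Nothing is read from these shares, since the same contrast chose the family. The median log2 difference of the 8 members was 0.21, beside 0.01 over all genes. In a bulk sample, more cells of a type and more RNA per cell cannot be told apart.

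Siglece encodes Siglec-E, an inhibitory receptor of mouse neutrophils and macrophages. Its intensities were 751, 708 and 691 with vehicle and 1594, 1619 and 1646 with the inhibitor. The lowest inhibitor array lay far above the brightest vehicle array, and each group was tight. The log2 difference, inhibitor minus vehicle, was 1.18 ± 0.05 (SE, n = 3 each), or 2.26-fold, with a 95% interval of 1.05 to 1.30. Only 0.448% of the genes tested had a larger rise.

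Siglec1 encodes sialoadhesin (CD169), an adhesion receptor of macrophages without an inhibitory tail motif. It was read at 118, 121 and 119 with vehicle and at 225, 286 and 284 with the inhibitor. The vehicle arrays were nearly equal, and inhibitor array 1 was clearly below the other two. Its log2 difference was 1.14 ± 0.10 (SE, n = 3 each), or 2.20-fold, with a 95% interval of 0.91 to 1.37. Without inhibitor array 1 it was 1.25.

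Cd22 encodes the co-receptor that dampens B cell receptor signals, and it binds sialic acid in the linkage that the enzyme ST6GAL1 makes. Its intensities were 75.5, 63.8 and 66.9 with vehicle and 113, 119 and 122 with the inhibitor. The groups did not overlap, and even the highest value lay below the median of the gene means, 160.0, so the probe set was dim. The log2 difference was 0.79 ± 0.07 (SE, n = 3 each), or 1.72-fold, with a 95% interval of 0.61 to 0.96, and 1.08% of genes had a larger rise. It was 0.67 when 16 was added to each intensity before log2 was taken.

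Cd33 encodes a Siglec of myeloid cells. Mouse CD33 differs from the human protein in its tail and is known to pair with DAP12. Its intensities were 3357, 3367 and 3347 with vehicle and 4242, 4138 and 3991 with the inhibitor. The vehicle arrays differed by little, with a coefficient of variation of 0.290%, and the inhibitor arrays all lay above them. The log2 difference was small at 0.30 ± 0.05 (SE, n = 3 each), or 1.23-fold, with a 95% interval of 0.18 to 0.41. With median centring of the arrays the log2 difference was 0.26 and Cd33 no longer passed the threshold, which left 3 members called.

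**Figure D2:**
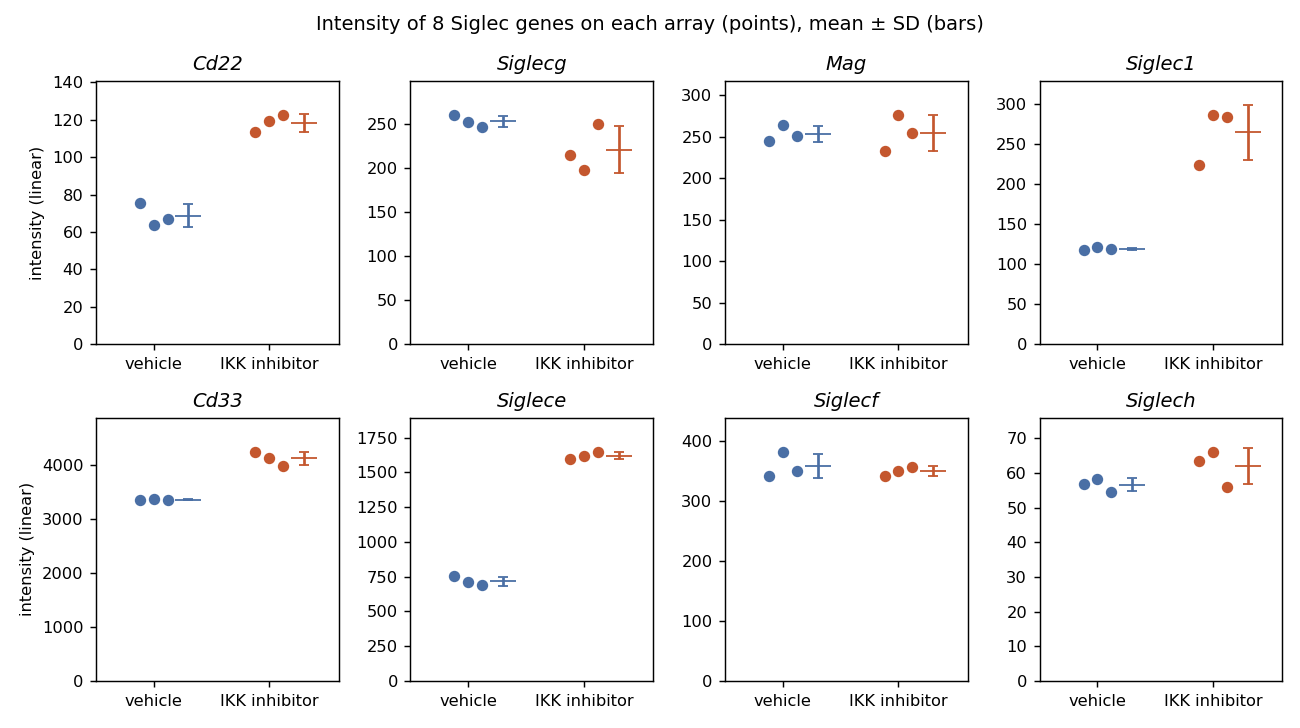
Intensity (linear axis from 0) of each of 8 Siglec genes on the 3 vehicle arrays (blue) and the 3 IKK inhibitor arrays (orange), with bars for mean ± SD; each panel has its own scale. The inhibitor points of Cd22, Siglec1, Cd33 and Siglece lie above all vehicle points, as with 1594 to 1646 against 691 to 751 for Siglece, and those of the other genes overlap.

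The other 4 members had log2 differences closer to 0. Siglecg encodes Siglec-G, an inhibitory receptor of B cells that binds CD24. It was read at 260, 252 and 247 with vehicle and at 215, 198 and 250.1 with the inhibitor. Inhibitor array 3 lay within the vehicle range and the other two below it, and the log2 difference was -0.20 (95% interval -0.41 to 0.01). Without inhibitor array 3 it was -0.30 and Siglecg was called lower, the sole such setting among 17 alternatives. Without inhibitor array 2 it was -0.13.

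Siglech encodes a receptor of plasmacytoid dendritic cells that pairs with DAP12. Its values were 57.0, 58.3 and 54.6 with vehicle and 63.6, 66.0 and 56.1 with the inhibitor, dim on all arrays. The groups overlapped through inhibitor array 3, and the log2 difference was 0.13 (95% interval -0.05 to 0.30). A floor of 64 brought it to 0.02, and leaving out inhibitor array 2 or 3 gave 0.08 or 0.20. Siglecf, known from eosinophils, had values of 342, 382 and 351 with vehicle and 342, 351 and 357 with the inhibitor. The groups overlapped, with vehicle array 2 above the rest, and the log2 difference was -0.03 (95% interval -0.17 to 0.11). Over the 17 alternatives it ran from -0.07 to 0.01. Mag encodes a receptor of myelin-forming cells and was read at 244, 263 and 251 with vehicle and 233, 276 and 254 with the inhibitor. Its inhibitor arrays lay on both sides of the vehicle arrays, and the log2 difference was 0.01 (95% interval -0.17 to 0.18, and -0.05 to 0.07 over the alternatives). Siglec15, whose product pairs with DAP12 and is known from osteoclasts, was read at 218, 187 and 185 with vehicle and 208, 179 and 217 with the inhibitor, an overlapping range. Its log2 difference was 0.03 (95% interval -0.19 to 0.26). The table holds no detection calls, so none of these genes can be said to be above or below background.

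**Figure D3:**
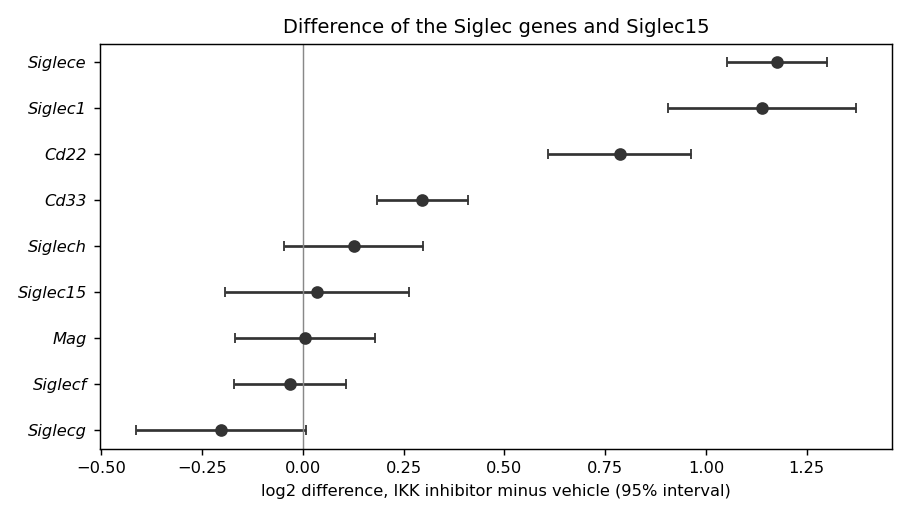
Log2 difference, IKK inhibitor minus vehicle, of the 8 Siglec genes and Siglec15, with the 95% interval of the limma fit (3 arrays a group). The intervals of Siglece, Siglec1, Cd22 and Cd33 lie above 0, from 0.18 upward, and those of the other 5 genes include 0.

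The members that were higher crossed the known classes. Siglece and Cd22 carry inhibitory tails, as Siglecg and Siglecf do. Of the members that pair with DAP12, Cd33 was higher by 0.30 on the log2 scale, while Siglech and Siglec15 had intervals that include 0. Across the 6 arrays the log2 values of Cd22 had a Pearson r of 0.989 with Siglece, 0.973 with Siglec1 and 0.952 with Cd33. These points share the treatment step and the brightness of each array, so the correlation is a description. Among genes brighter than the median gene, those most like Cd22 over the 6 arrays were Tbc1d9 (r = 0.998), the granulocyte antigen gene Ly6g (0.998), the actin regulator gene Coro1b (0.997), Mgst2 (0.995) and Lrp12 (0.995). Those most like Siglece were the chemokine gene Ccl6 (r = 0.999), B430306N03Rik (0.999), Ptgr1 (0.999), the checkpoint receptor gene Vsir (0.999) and Natd1 (0.999). Ccl6 rose from a mean intensity of 1142 to 2797.

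Genes that lie beside the members were looked up in the RefSeq gene table. Cd22 and Mag are each other's nearest measured gene on one side, and their log2 differences were 0.79 and 0.01. Siglecf and Siglecg also lie next to each other, at -0.03 and -0.20. Zfp658, the nearest gene on one side of Cd33, rose from 161 ± 7.87 to 259 ± 16.9 (SD, n = 3 each), a log2 difference of 0.69 ± 0.07 (SE, adjusted p = 0.00141 by limma). On the other side of Cd33, Gm2511 had a log2 difference of 0.10 and did not pass. Ceacam18, whose annotated span overlaps that of Siglece, rose from 222 ± 9.73 to 306 ± 19.4 (SD, n = 3 each), a log2 difference of 0.46 ± 0.07 (SE, adjusted p = 0.00602 by limma). Both calls held in all 17 alternatives. Ctu1, which overlaps the span of Siglece at the other end, had a log2 difference of 0.01 (95% interval -0.12 to 0.13). Whether probes of Ceacam18 or of another Siglec gene can also bind Siglece transcripts was not tested. The nearest genes of Siglec1 on the measured side, Adam33, and of Cd22, Ffar1, had log2 differences of 0.01 and -0.11 and did not pass. Neither did Zfp715 beside Siglecf (-0.02), Hamp2 beside Mag (0.08) or Tubgcp5 beside Siglech (-0.09). D7Ertd128e, Gm38999, Gm30378 and Gm39015, the nearest annotated genes on the remaining sides, are not analysed here.

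Sialic acid is made in the cytosol, activated in the nucleus and added to glycans in the Golgi. Among 10 genes of its synthesis and transport, 2 were called lower and 1 higher, and the list's median log2 difference was -0.01, beside 0.01 over all genes. The shares to set beside the counts of this list and each list below are 7.10% of all genes called higher and 6.75% lower. Gne, which encodes the rate-limiting enzyme of the pathway, fell from 1686, 1696 and 1688 with vehicle to 1401, 1476 and 1343. Its log2 difference was -0.27 ± 0.05 (SE, adjusted p = 0.0203 by limma). Nans, the sialic acid synthase gene, fell from 1142 ± 14.2 to 956 ± 28.6 (SD, n = 3 each), by 0.26 on the log2 scale (adjusted p = 0.0164). The next enzyme gene, Nanp, had a log2 difference of -0.21 and did not pass (adjusted p = 0.103), although its groups did not overlap. Slc17a5, the gene of the transporter that exports free sialic acid from lysosomes, rose by 0.26 (adjusted p = 0.023). These changes were small, and leaving out some single arrays ended the calls. Such fits rest on fewer arrays, and without vehicle array 1 the count over all genes fell from 2749 to 1567. In that fit the log2 difference of Gne stayed at -0.27, with an SE of 0.065 in place of 0.053. Gne did not pass without vehicle array 1, 2 or 3 or inhibitor array 1 (adjusted p = 0.0633, 0.0796, 0.077 and 0.0772), nor under a replicate block (0.0545) or median centring (0.052). Slc17a5 did not pass in the same settings, at 0.0594, 0.0738, 0.0932 and 0.0772, 0.0512 with the block and 0.138 with centring. Nans did not pass without vehicle array 2 or 3 or inhibitor array 1 (0.0711, 0.0688 and 0.0701). Without these 3 arrays in turn no gene of the list passed.

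Sialyltransferases attach sialic acid in the linkages that Siglecs tell apart. Of 20 measured, 2 rose and 2 fell, and the list's median was 0.05. St3gal1, which caps mucin-type O-glycans, rose from 855, 889 and 853 to 1204, 1244 and 1186. The log2 difference was 0.48 ± 0.05 (SE, adjusted p = 0.00152 by limma), with no overlap of the groups. St3gal3 rose by 0.36 ± 0.05 (adjusted p = 0.00615). St6galnac4, which also acts on O-glycans, fell from 798 ± 18.1 to 591 ± 20.9 (SD, n = 3 each), by 0.44 on the log2 scale (adjusted p = 0.00306). St8sia4, a polysialyltransferase gene, fell from 639, 680 and 665 to 491, 511 and 444, by 0.46 (adjusted p = 0.00677). These 4 calls held in all 17 alternatives, but the log2 difference of St3gal1 was 0.31 with the mean of its probe sets. St6gal1, the gene of the enzyme that makes the ligand of CD22, was read at 101, 88.7 and 94.7 with vehicle and 127, 101 and 119 with the inhibitor. The groups touched without overlapping, and with a log2 difference of 0.28 it did not pass (adjusted p = 0.108). Of the sialidases, which remove sialic acid, none of Neu1 (0.11), Neu2 (0.02), Neu3 (0.04) and Neu4 (0.05) passed. Ctsa, whose product holds the lysosomal sialidase NEU1 in its active complex, rose by 0.28 ± 0.05 (adjusted p = 0.0107), and the call was lost without vehicle array 2 (0.0542) and with median centring (0.0877).

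Adaptors and enzymes through which Siglecs signal were called in 5 of 14 cases, all higher, beside 7.10% of all genes called higher. At an unadjusted p under 0.05 there were 8 higher and 0 lower, beside 5394 of the 19847 genes in either direction. Calls are more frequent among bright genes. With only genes above the median intensity fitted, 7 of the 13 left in this list were called higher, beside 1731 of 9923 genes. All 14 log2 differences were above 0 and their median was 0.14. Blnk, an adaptor of the B cell receptor that also serves in myeloid cells, rose from a dim 56.3 to 70.3, by 0.32 (adjusted p = 0.00827 by limma). With a floor of 64 its log2 difference was 0.13 and it did not pass (adjusted p = 0.0565). Socs3, a feedback inhibitor, rose by 0.33 (adjusted p = 0.0116), and the ubiquitin ligase gene Cbl by 0.28 (0.0102). Tyrobp, the DAP12 gene, was read at 2935, 2949 and 2933 with vehicle and 3344, 3334 and 3445 with the inhibitor. It rose by 0.20 (adjusted p = 0.031), and Syk rose by 0.28 (0.0308). With single arrays left out, Tyrobp passed only without inhibitor array 2 and Syk only without inhibitor array 3. Without the other arrays their adjusted p ran up to 0.11 and 0.0999, and neither passed under a replicate block (0.0826 and 0.0607) or median centring (0.246 and 0.142). Centring also ended the calls of Cbl (0.0816) and Socs3 (0.0529). Socs3 did not pass without vehicle array 2 (0.0557) either, and with the mean of its probe sets its log2 difference was 0.19 (adjusted p = 0.0591). The count for the list was 3, 2 and 3 without vehicle arrays 1, 2 and 3, 3 without inhibitor array 1 and 1 with median centring, where Blnk was the call left. The phosphatase genes Ptpn6 (0.13) and Ptpn11 (0.0013) and the lipid phosphatase gene Inpp5d (0.15) did not pass. Lyn, the Src family kinase of CD22, is not analysed here.

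Among 8 genes of sialylated surface proteins that Siglecs are known to bind or that carry much sialic acid, 6 rose and 0 fell. These counts were the same at an unadjusted p under 0.05 by limma, which 5394 of the 19847 genes had in either direction. At the adjusted threshold 7.10% of all genes were called higher. With only genes above the median intensity fitted, the list again had 6 of 8 called higher, beside 1731 of 9923 genes. The list's median was 0.29. Cd52, a short and heavily glycosylated leukocyte antigen, rose from 954, 948 and 967 to 1692, 1705 and 1840, by 0.87 ± 0.05 (SE, adjusted p = 0.000207 by limma). Itgam and Itgb2, the chains of the integrin Mac-1, rose by 0.69 (adjusted p = 0.000405) and 0.42 (0.00193), and Cd44 by 0.34 (0.00536). Cd24a, the gene of the ligand of Siglec-G, rose by 0.25 (adjusted p = 0.0315). Ptprc, a ligand of CD22, rose by 0.19 (0.0488). The Ptprc call was lost whichever array was left out (adjusted p = 0.0817 to 0.165) and also under a replicate block (0.108), quantile normalization (0.0571) or median centring (0.313). The Cd24a call was lost without every array but inhibitor array 2 (0.0561 to 0.114) and with the block (0.0589) or centring (0.135). Spn (-0.03) and Selplg (0.09) did not pass.

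**Figure D4:**
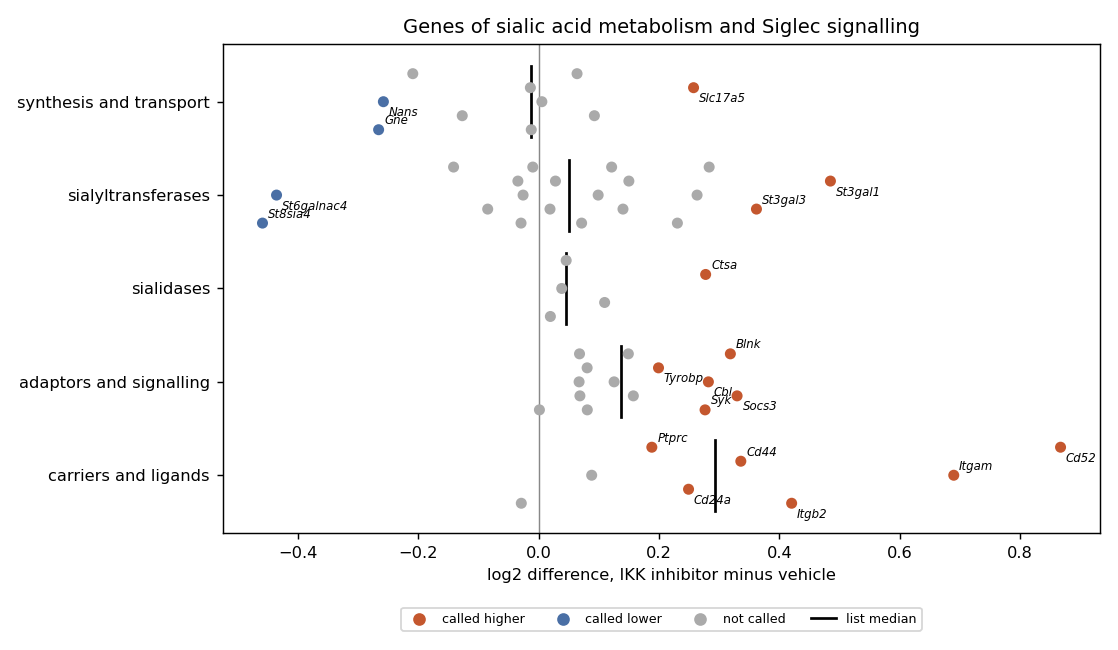
Log2 difference, IKK inhibitor minus vehicle, of single genes (points) in 5 lists of sialic acid metabolism and Siglec signalling, coloured by their call in the limma fit over all genes, with a black bar at each list's median. Synthesis and sialyltransferase genes fall on both sides of 0, and the 14 adaptor genes all lie above it, with Cd52 at 0.87 the farthest right.

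Markers of the cell types from which Siglecs are known were set beside the members. Of 9 macrophage markers 8 rose and 0 fell, beside 7.10% of all genes called higher. These counts are the same at an unadjusted p under 0.05 by limma, which 5394 of the 19847 genes had in either direction. That share is also the one to set beside the unadjusted counts of the marker lists below. The median log2 difference of the macrophage markers was 0.76. Their summed intensity ran from 5357 to 5538 with vehicle and from 10064 to 10921 with the inhibitor, beside the higher values of Siglece, Siglec1, Cd22 and Cd33. Marco rose by 2.69, Mertk by 1.96, Adgre1 by 1.43 and Csf1r by 1.23 on the log2 scale, and Cd163 (0.12) did not pass. Mrc1 rose by 0.38, which with single arrays left out passed only without inhibitor array 1. Itgam counts both here and among the sialylated surface proteins above. Whether this shift has any part in the values of the members was not tested, and no list of neutrophil markers was set beside them.

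B cell markers, the list nearest to Cd22, gave single calls both ways. Of 12 measured, 1 was called higher and 1 lower, at an unadjusted p under 0.05 1 and 2, and the median log2 difference was 0.04. The summed intensity ran from 1300.4 to 1358 with vehicle and from 1200 to 1363 with the inhibitor. Blnk was the gene called higher. Igll1, a surrogate light chain gene of B cell precursors, fell from 190, 186 and 196 to 113, 118 and 112, by 0.74 on the log2 scale (adjusted p = 0.000278 by limma). Cd79a (-0.33), Cd79b (0.09), Ms4a1 (0.12) and Pax5 (0.12) did not pass. Ms4a1, the CD20 gene, lay between 21.2 and 26.7 on all arrays. No marker of the list was at 0.

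For Siglech, 8 plasmacytoid dendritic cell markers gave 1 call higher, Irf8 (0.68), and 1 lower, Cox6a2 (-0.33, lost without vehicle array 3 at adjusted p = 0.0519). Irf8 is also a factor of monocytes. The summed intensity of the plasmacytoid dendritic cell markers was 3292 to 3465 with vehicle and 3122 to 3290.0 with the inhibitor. Bright probe sets weigh most in such a sum, so it shows no shift of the list as a whole. Cox6a2, the brightest, fell from a mean of 1495 to 1190, and Irf8 rose from 308 to 496. For Siglecf, 1 of 6 eosinophil markers rose, the ribonuclease gene Ear6 (0.64), and the call held in all 15 alternatives that kept it. Ear6 belongs to a family of similar genes, and whether its probes also bind their transcripts was not tested. The defining genes Epx (0.09), Prg2 (-0.15), Il5ra (0.15) and Ccr3 (0.15) did not pass and lay at or below 80.6 on every array. The list's summed intensity was 391 to 402 with vehicle and 409 to 462 with the inhibitor. Within that sum, Ear6 alone went from a mean of 56.1 to 86.8. For Mag, 0 of 6 myelin genes were called in either direction, and 0 had an unadjusted p under 0.05, with summed intensities of 1004 to 1025 and 969 to 1043. No marker of these lists was at 0. The medians of the B cell, plasmacytoid dendritic cell, eosinophil and myelin lists changed sign between alternatives, so no direction is given for them.

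**Figure D5:**
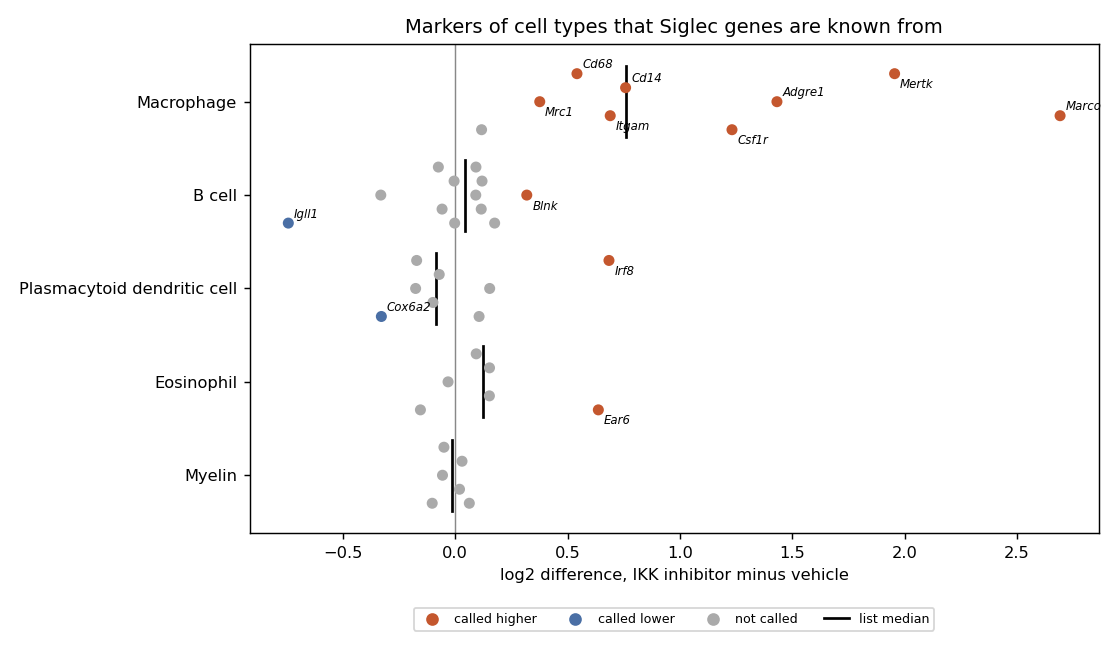
Log2 difference, IKK inhibitor minus vehicle, of markers of 5 cell types (points), coloured by their call in the limma fit over all genes, with a black bar at each list's median. Of the macrophage markers, 8 of 9 are called higher around a median of 0.76, and the other medians lie closer to 0, with single genes called in the B cell, plasmacytoid dendritic cell and eosinophil lists and 0 in the myelin list.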

How the data were processed

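RNA of 3 vehicle and 3 inhibitor samples of mouse MLL-AF10 leukemia cells was read on Affymetrix whole-transcript arrays. Per the submitters' processing notes, the authors used Affymetrix Expression Console to make the deposited intensity values. The sources used here give neither its version nor the summarization, background correction or scaling. Values ran from 0.71 to 8186 and were read as linear.

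Groups came from the treatment labels. Values below 16 (5.94%) were set to 16 and log2 was taken. Of 35512 probe sets, 21789 had 1 gene symbol, 1621 had several and 12102 were unlisted. For 21698 of those with 1 symbol, the symbol was read from the RefSeq gene table by Entrez number, whether or not it differed. The probe set with the highest mean stood for a gene, and the 91 genes at the floor on every array were left out. The groups were tested in R 4.3.3 by limma 3.58.1 (lmFit and eBayes without covariates, 2-sided). Benjamini-Hochberg adjustment ran over 19847 genes, with a threshold of 0.05. The fit was tested on simulated data. Promoters were read from RefSeq (GRCm38.p6) with Python 3.11.15, and the 7 motifs searched are those spelled out in the text.

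The members, gene lists, motifs and the rule for named genes were chosen with earlier results of these data known. The rule names all members and Siglec15, list genes past the threshold or among the 4 smallest p of a list, the nearest annotated genes and the 5 genes most like Cd22 and Siglece. Other list genes and measured neighbours were named after their values were seen. Alternatives were other floors, scalings, filters, priors and probe set rules, a replicate block, and leaving out each array.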

Additional observations from a re-analysis of the deposited data

How the results depend on the processing

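Over all 17 alternatives, and the 16 that kept Cd22, the log2 differences of Siglece (1.14 to 1.21), Siglec1 (1.04 to 1.25), Cd33 (0.25 to 0.32) and Cd22 (0.67 to 0.86) stayed above 0. Cd22 was 0.67 with 16 added before log2. Members called ranged from 3 to 5, and from 4 to 5 when an array was left out. The count over all genes was 2749, with 1679 under a replicate block, 4199 with an intensity trend and robust prior, and 1184 to 2812 without single arrays. For synthesis and transport, median centring left 1 call and a replicate block 1, and counts were 0 to 3 without single arrays. For sialidases they were 0 by limma with centring (1 at an unadjusted p under 0.05) and 0 to 1 without single arrays. For adaptors and signalling they were 1 with centring, 3 with a replicate block, 8 with the trend and 2 to 4 without single arrays. Counts without single arrays were 4 to 6 for sialyltransferases and 4 to 5 for carriers. The medians of the synthesis and sialyltransferase lists changed sign between alternatives. Deviations of arrays with the same replicate number correlated at 0.24, 0.13 and -0.10, so the replicate numbers were not taken to pair the samples. Numbers 1 and 2 correlated best with themselves and number 3 did not. Where a call was lost, the cause was not tested. Dim probe sets such as those of Cd22 and Siglech limit what the array can show.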
